A study of Mus musculus with 20 samples.

Results

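Potassium channel genes are taken here as all genes whose symbol starts with Kcn and that had at least 50 transcript counts over the kept wells of a developmental series of the mouse habenula. The rule gave 73 members out of 99 such symbols among 37994 genes. Wells entered the analysis when they had 1000 or more counts that were neither spike-in nor mitochondrial, 500 or more detected genes, and a mitochondrial share of 20% or less. Just inside the limit lay Kcnk5 with 50 counts and Kcng2 and Kcng3 with 58 each, and just outside lay Kcng1 with 43 and Kcnmb1 with 40.

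Single cells were sequenced on 384-well plates with Cel-seq2, in which poly-T primers carry a well barcode and a unique molecular identifier, so that the 3′ end of each captured transcript is counted once. The series used the Brn3a-tauLacZ mouse line, named for a tau-LacZ reporter of Brn3a (the protein of Pou4f1), at embryonic days 11 (E11), 12, 13, 15 and 18, postnatal days 4 (P4) and 7, and in adults, with 2 plates per stage except 1 at E12. A second set from C57BL/6 mice at E18 held 2 plates of left habenula, 2 of right and 1 of both sides; the title of the last gives another stage than its other labels. The labels give neither the zygosity of the reporter, the adult age, nor the number of animals per plate, so the plate was the replicate and p-values measure the spread between plates.

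Potassium channels let potassium leave or enter a cell and so set its resting potential, shape each action potential and limit how often a neuron fires. Pore subunits assemble around a selectivity filter, and cytoplasmic or membrane partners change their gating, trafficking and inactivation. The habenula relays forebrain input to the midbrain, and neurons of its medial part can fire without input.

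The sequence that marks a pore subunit is the filter, with a glycine, an aromatic residue and a second glycine, often after a threonine. The windows below are shown because the members that follow differ in this stretch or share it. They are coding sequence of the GENCODE M21 transcripts (GRCm38), written 5′ to 3′, with the 9 bases of the glycine, aromatic and glycine codons in capitals.
Kcnma1: atgtctacagtgGGTTATGGGgacgtt
Kcnd2: atgacaacactgGGGTATGGCgacatg
Kcng4: atgacgaccgtgGGCTATGGGgacatg
Kcns2: atgaccacagttGGGTACGGAgatgtg
Kcnk9: atcacaactatcGGATATGGAcatgct
Kcnk2: atcacaaccataGGATTTGGAaacatc
Kcnh5: cttacaaccataGGATTTGGAaacata
Kcnj10: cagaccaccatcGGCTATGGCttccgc
Kcnj8: caagtgaccattGGGTTTGGAgggaga
Kcnt2: ttttctactgtgGGCTTTGGGgatgtc
The coding sequences were searched in frame for a threonine codon, any codon and a glycine codon, then a codon of T, A or T, and any base, which takes in tyrosine and phenylalanine, and a last glycine codon. Of 57 pore-forming members 48 held a match, and 0 of the 13 coding members that form no pore did. The pore-forming members without a match were Kcnn1, Kcnn2, Kcnn3, Kcnh1, Kcnh2, Kcnh4, Kcnh6, Kcnh7 and Kcnh8. The search demands a threonine codon, so no match does not mean that a filter is missing. Kcnk2, Kcnh5, Kcnj8 and Kcnt2 have a phenylalanine codon in the window shown, and the other members shown have a tyrosine codon. Kcng4 and Kcns2, which form no working channel alone and modify Kv2 channels, hold such a match too. A match is a description of these letters and not a measure of a working pore.

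Values below are counts per 1e6 counts (CPM) summed over the wells of a plate with at least 1 Pou4f1 count, 2933 of 3729 kept wells in the series and 727 of 1082 in the second set. Pou4f1 marks habenular neurons. These wells held 556190 counts on plate adult 1 and 7421718 on plate P7 1, the lowest and the highest, and the medial habenula marker list summed to 2014 and 2043 CPM at E11 and to 8340 and 8439 at P7. The plates E18 1, adult 1, E13 2 and E15 1 stood apart. Plate E18 1 had only 28.1% of kept wells with Pou4f1, a medial habenula sum of 1209 CPM against 5082 on E18 2, and an astrocyte list at 1169 against 192. Adult 1 had 21 such wells and an oligodendrocyte lineage list at 5344 CPM against 544 on adult 2, and E13 2 had a choroid plexus and ependymal list at 2605 against 18. On E15 1 the medial habenula sum was 2415 CPM against 5011 on E15 2, and a thalamus list was at 5089 against 2897. The part of these other cells in the results was not tested, and results are given without these plates where they change. The sources used here do not say which plates shared a sequencing run, so stage and run cannot be told apart.

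The 73 members together took 0.273% and 0.267% of all counts on the E11 plates and 1.40% and 1.34% on the P7 plates. Much of that difference lay in 3 genes: Kcnma1, Kcnd2 and Kcnip1 made up 16.7% and 19.5% of the members' counts at E11, and 77.8% and 76.4% at P7. The sum without them was 2272 and 2146 CPM at E11 and 3106 and 3160 at P7. At E11 the member with the highest level was Kcnb2, a delayed-rectifier subunit of the Kv2 family, at 339.6 ± 0.371 CPM (SD, n = 2), followed by Kcnma1 and Kcnh7. Levels of different genes were not divided by length, since 1 tag is counted per transcript, but 83.9% of the Kcnb2 counts were unspliced and unspliced counts rise with the length of a gene. Of all members, 28 had their highest stage mean in adults, 13 on the E12 plate, 10 at P7 and 4 at E11. The adult mean gives adult 1, with 21 wells, the same weight as adult 2, and E12 is 1 plate. The same counts for all genes are not given here, so these are not read as peaks of the family.

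**Figure D1:**
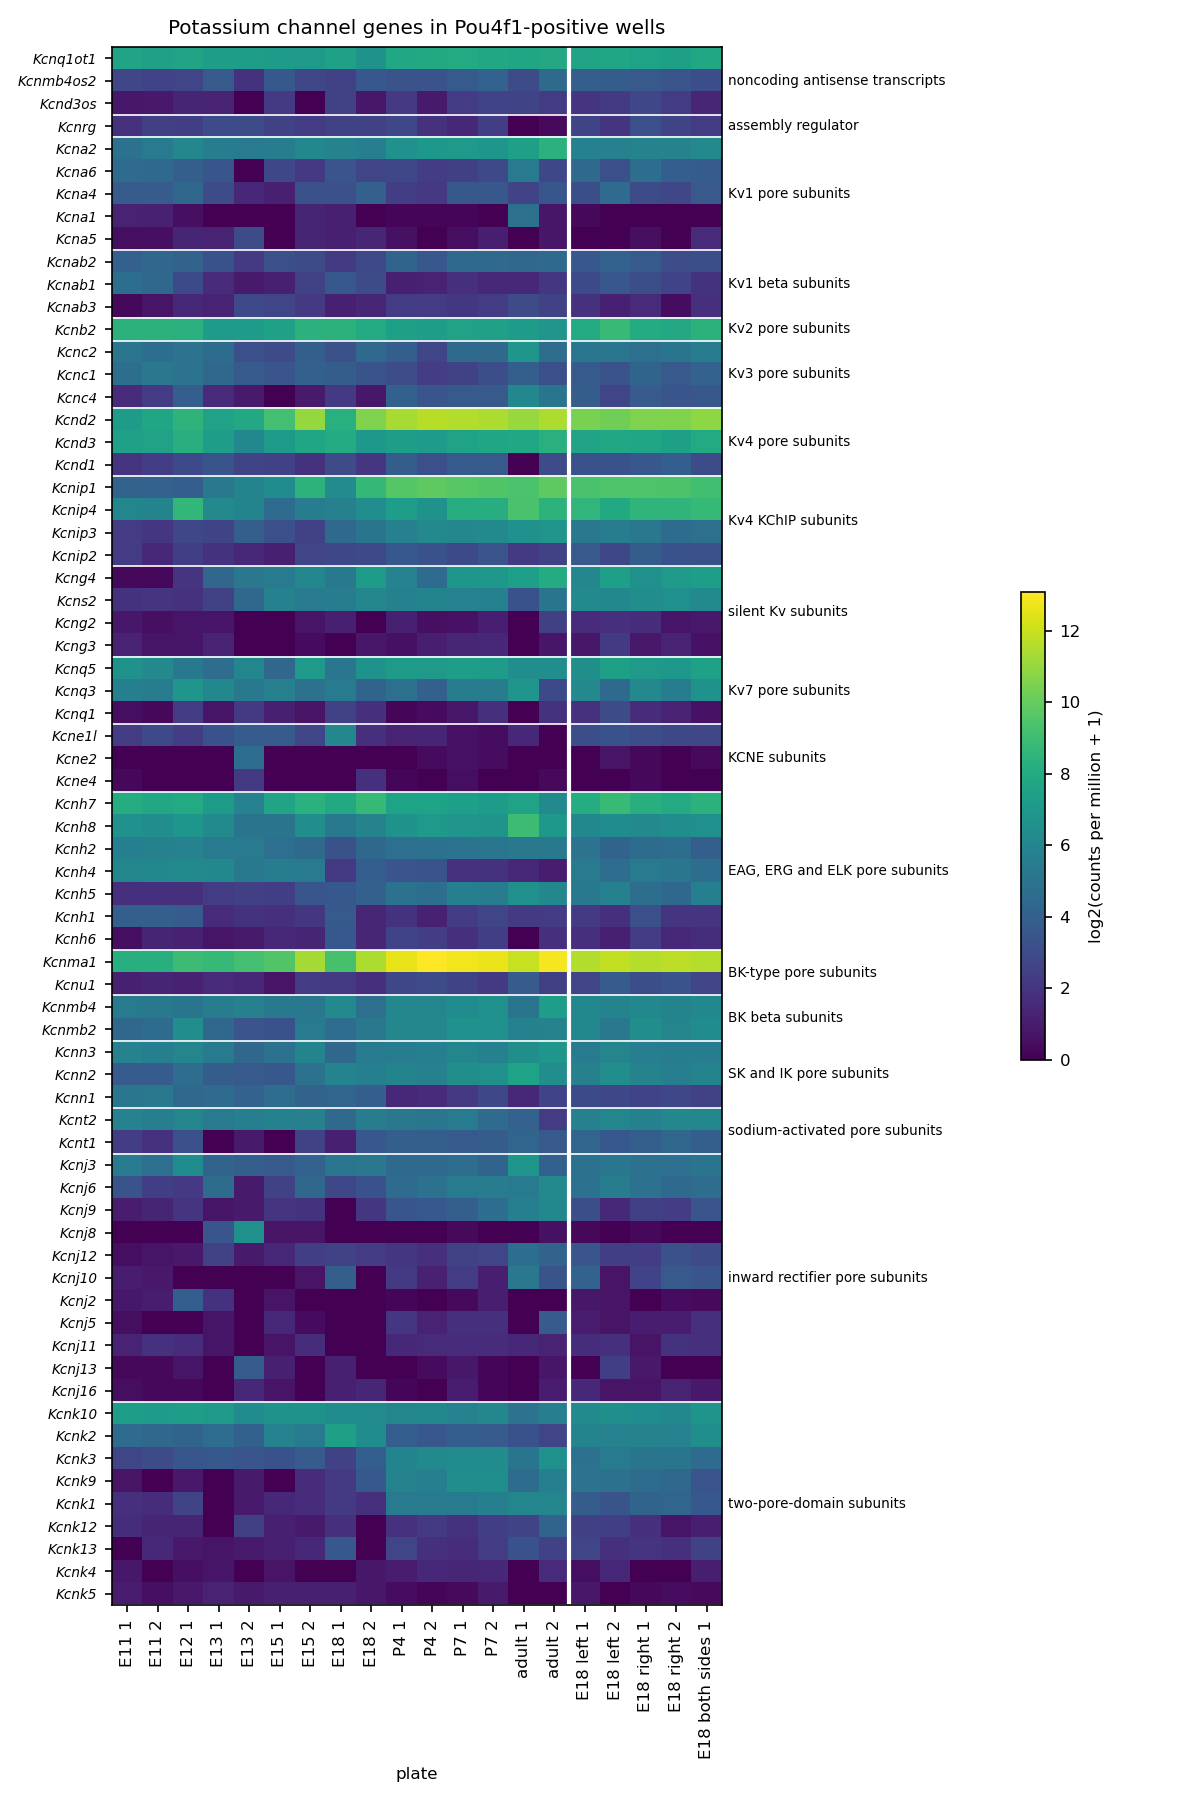
Level of 69 of the 73 potassium channel genes, as log2 of CPM plus 1 in Pou4f1-positive wells, with 1 row per gene grouped by role and 1 column per plate from E11 to adult and then the E18 left, right and both-sides plates. Kcnma1, Kcnd2 and Kcnip1 reach their highest colours from P4 on, and Kcnh4 fades over the same columns.

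The longest interval with similar plates at both ends, E11 to P7, set the earliest stage against the first postnatal week. Of the 61 members with enough counts for the test, 23 were called higher and 7 lower at P7, which is 49.2% of those tested. Over all 16353 genes tested 35.0% were called, 18.8% higher and 16.2% lower. The median difference of the members was 1.48 on the log2 scale (1.41 with a gene at 0 on the plates of a stage set to a floor of 3 counts over that stage), and the median of all genes was 0.01. A dissociation response list of heat shock and immediate early genes summed to 379 and 469 CPM at E11 and 851 and 1183 at P7, with 5 of its 10 genes called higher and 1 lower and a median of 1.69, and its part in the results was not tested. The 12 members without a test were Kcna1, Kcna5, Kcne2, Kcne4, Kcng2, Kcng3, Kcnj2, Kcnj11, Kcnj13, Kcnj16, Kcnk4 and Kcnk5. In a sum over the cells of a plate fewer cells with a transcript and fewer transcripts per cell cannot be told apart.

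**Figure D2:**
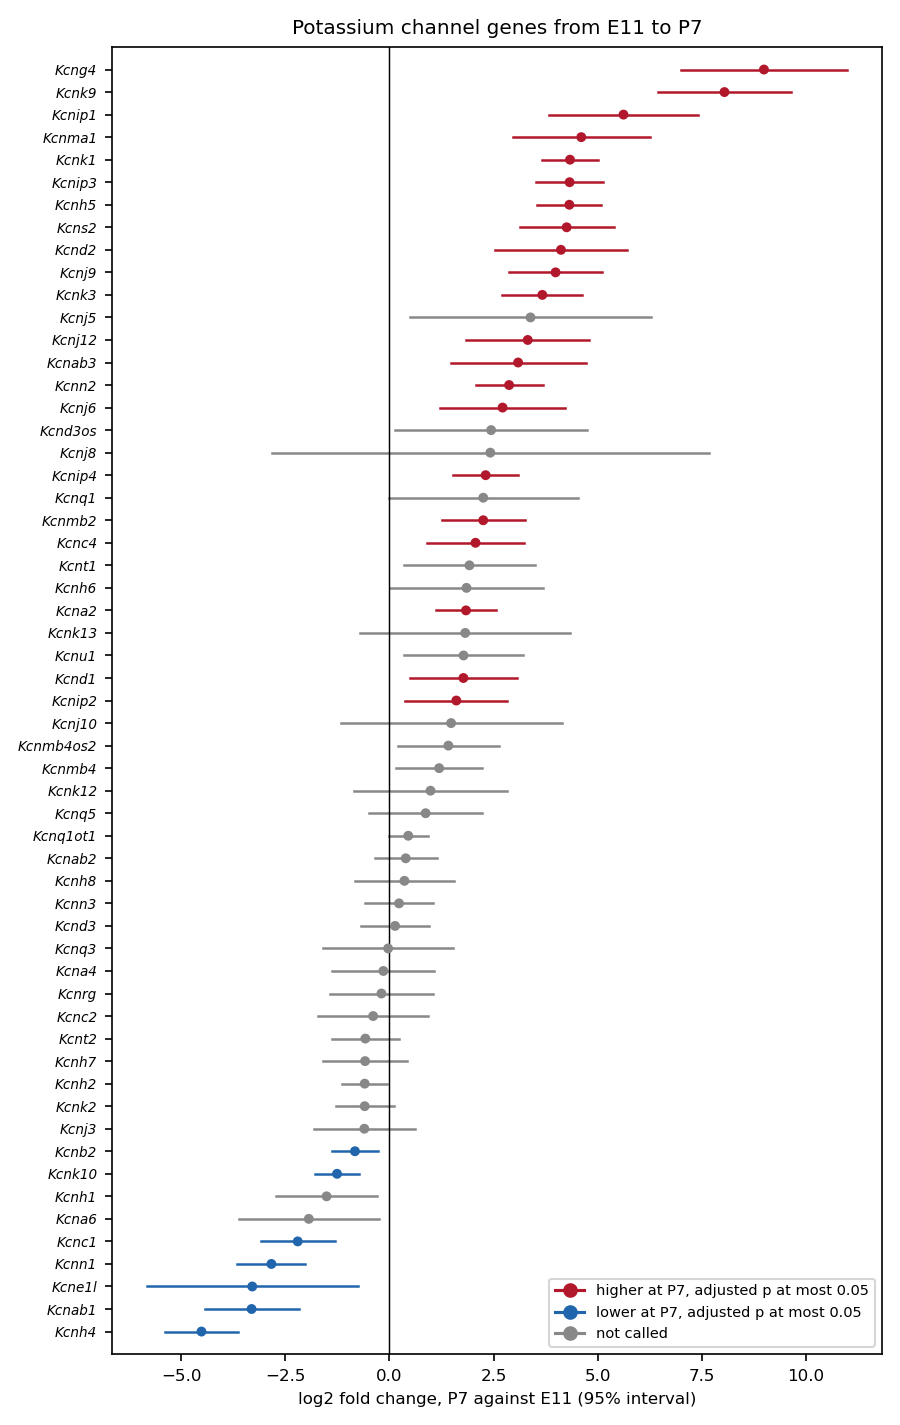
Difference between P7 and E11 for 57 of the 61 tested potassium channel genes on the log2 scale, with its 95% interval, ordered by size and coloured by whether the adjusted p was at most 0.05. The called genes run from Kcnh4 at -4.51 to Kcng4, whose fitted value depends on 2 counts at E11.

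Kcnma1 encodes the pore of the BK channel, which opens with both depolarization and calcium and repolarizes the action potential. It lies on chromosome 14 (chr14:23289431-24014491, minus strand, GRCm38). Its level was 293 CPM on each E11 plate, 508 at E12, 426 and 578 at E13, 730 and 2587 at E15, 614 and 2841 at E18, then 6497 and 8652 at P4, 7014 and 6626 at P7, with 4033 and 7596 in adults. Every P4, P7 and adult plate lay above every earlier plate, whereas the plates within E15 and within E18 differed more than E11 differed from E13. The low plates were E15 1 and E18 1. The fitted difference from E11 to P7 was 4.60 on the log2 scale (SE 0.76, 24.3-fold, adjusted p 0.00068, edgeR quasi-likelihood test with Benjamini-Hochberg adjustment, as are all adjusted p-values here). In the second set Kcnma1 was at 3051 and 3756 CPM on the left plates, 3149 and 3536 on the right ones, and 3194 where both sides were pooled, all above plate E18 2.

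The BK beta subunits Kcnmb2 and Kcnmb4 adjust the channel's calcium sensitivity and inactivation. Kcnmb2, whose product inactivates BK current, was at 19.8 and 23.2 CPM at E11 and at 98.7 and 97.8 at P7, a difference of 2.25 (SE 0.46, adjusted p 0.0027). Kcnmb4, the beta subunit found mostly in neurons, was at 42.0 and 38.4 CPM at E11 and 81.8 and 94.8 at P7, and its difference of 1.19 missed the threshold (adjusted p 0.069). Kcnu1, a BK-type pore best known from sperm, stayed between 0.624 and 12.6 CPM on the plates of the series and between 5.58 and 13.1 on the C57BL/6 plates.

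The Kv4 channels carry A-type current, which opens below threshold and delays firing, and the KChIP proteins bind them in the cytoplasm and bring them to the membrane. Kcnd2, the Kv4.2 pore, was at 146 and 211 CPM at E11, 359 at E12, 183 and 241 at E13, 575 and 2062 at E15, 316 and 1496 at E18, then 2648 and 3243 at P4, 3075 and 2866 at P7, with 2114 and 2880 in adults. As for Kcnma1, the P4, P7 and adult plates lay above all earlier ones and 1 plate each of E15 and E18 was low. Its difference from E11 to P7 was 4.12 (SE 0.73, 17.4-fold, adjusted p 0.0011). Kcnd1 differed by 1.78 at 12.0 and 11.6 CPM on the P7 plates, and Kcnd3 did not pass, at 181 and 188 CPM at E11 and 185 and 203 at P7 (0.14, 95% interval -0.68 to 0.95).

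All 4 KChIP genes were called higher at P7 than at E11. Kcnip1 was at 16.8 and 16.1 CPM at E11, 82.4 and 352 at E15, 77.2 and 419 at E18, then 802 and 926 at P4, with 819 and 727 at P7, with a difference of 5.62 (SE 0.82, 49.1-fold, adjusted p 0.0003). Its P4 and P7 plates were all higher than any earlier plate of the series. Kcnip3, also known as a calcium-binding transcription repressor, differed by 4.32 (20.0-fold), Kcnip4 by 2.31 and Kcnip2 by 1.61. Kcnip4 went up and down over the stages, at 62.1 and 58.2 CPM at E11, 399 on the E12 plate, 71.1 and 58.9 at E13, 23.1 and 45.4 at E15, 287 and 283 at P7 and 639.6 and 349.6 in adults.

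**Figure D3:**
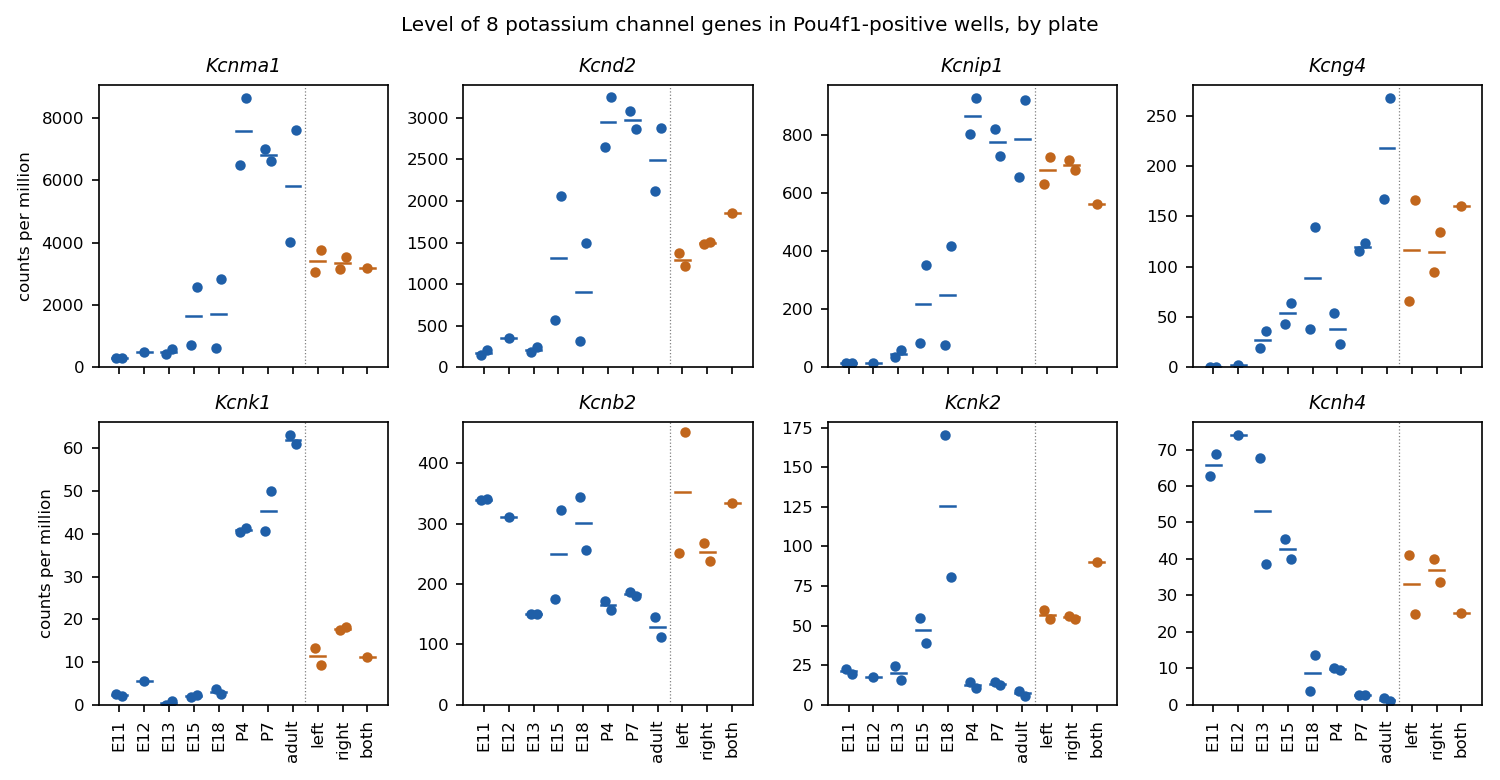
Level of 8 potassium channel genes in CPM of Pou4f1-positive wells (linear axes from 0) by group, with 1 point per plate and a short bar at each group mean, blue for the Brn3a-tauLacZ series and orange for the C57BL/6 plates at E18. Kcnma1, Kcnd2, Kcnip1 and Kcng4 rise over the series, Kcnh4 falls, and Kcnk2 peaks at E18 with 170 and 81.0 CPM.

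Kv2 channels carry slow delayed-rectifier current, and silent Kv subunits join them. Kcnb2 was at 339.4 and 339.9 CPM at E11 and at 186 and 180 at P7, a difference of -0.83 (SE 0.26, adjusted p 0.026). Kcng4 was nearly absent at E11, with 2 counts over both plates, and had 1531 counts at P7, a ratio per count of 569 (95% counting interval 157 to 4701). By plate it stood at 0.202 and 0.217 CPM at E11, 2.85 at E12, 19.1 and 35.8 at E13, 43.0 and 64.2 at E15, 38.0 and 139 at E18, then 53.9 and 23.1 at P4, 116 and 124 at P7, with 168 and 268 in adults. Every plate from E12 on was above both E11 plates. Kcns2 differed by 4.25 from E11 to P7 and was at 44.1 and 65.6 CPM at E18, 54.9 and 53.6 at P7, and 8.99 and 33.1 in adults. Kcng2 and Kcng3 were below the level needed for a test.

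Promoters are shown for 3 of the members called higher at P7 than at E11. For these the RefSeq window of 250 bases before the start lies outside the gene as GENCODE M21 draws it. The windows are from GRCm38.p6, 5′ to 3′ on the gene's strand. They are chr6:21215096-21215345 on the plus strand for Kcnd2, chr11:33993194-33993443 on the minus strand for Kcnip1 and chr8:119635681-119635930 on the minus strand for Kcng4. Capitals mark a GC box, GGGCGG on either strand.
Kcnd2: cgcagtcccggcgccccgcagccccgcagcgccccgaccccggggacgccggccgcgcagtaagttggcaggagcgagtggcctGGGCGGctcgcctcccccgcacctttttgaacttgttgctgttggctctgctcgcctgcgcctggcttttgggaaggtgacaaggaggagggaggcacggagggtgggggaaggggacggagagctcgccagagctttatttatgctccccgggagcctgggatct
Kcnip1: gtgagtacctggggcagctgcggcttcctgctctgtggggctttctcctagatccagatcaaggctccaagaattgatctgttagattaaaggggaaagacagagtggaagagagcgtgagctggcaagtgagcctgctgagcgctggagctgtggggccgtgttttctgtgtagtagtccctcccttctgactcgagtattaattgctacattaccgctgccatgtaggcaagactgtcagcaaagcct
Kcng4: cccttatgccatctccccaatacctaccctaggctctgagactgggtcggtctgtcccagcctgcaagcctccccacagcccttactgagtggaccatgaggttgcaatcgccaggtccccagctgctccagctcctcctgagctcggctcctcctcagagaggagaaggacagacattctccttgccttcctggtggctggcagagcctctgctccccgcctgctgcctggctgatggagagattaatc
Kcnd2 holds 1 GC box and the others hold none in the window shown. Kcnip1 has 3 promoter entries, of which 1 is shown. A GC box was found in 43.6% of 78 promoter entries of 55 members and in 32.7% of all 32851 entries, and a TATA box (TATAAA, either strand) in 3.85% and 12.4%. The E-box letters CANNTG were in 66.7% and 66.2%, and the letters ATNATTAAT, of the kind Brn3 factors bind, in 0 of 78 and in 0.935% of all. Each motif was counted on its own, also where it overlapped another, and these shares carry no test.

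Kv3 channels repolarize fast enough for high firing rates. From E11 to P7 Kcnc4 differed by 2.07, and Kcnc1 went the other way, from 25.7 and 35.2 CPM to 4.85 and 7.91 (-2.20, SE 0.41, adjusted p 0.0015). Of the 3 Kv1 pores tested, which hold low-threshold current near axons, Kcna2 passed, from 29.9 and 42.8 CPM to 133 and 116 (1.84). The Kv1 beta subunits split, with Kcnab3 higher by 3.09 at only 3.37 and 4.05 CPM on the P7 plates, and Kcnab1 lower by 3.31 at 25.5 and 19.8 CPM at E11. Some of the Kv7 pores carry the M-current that muscarinic input shuts off. Of the Kv7 pores, Kcnq1, Kcnq3 and Kcnq5 did not pass, with adjusted p-values of 0.11 or more. Kcnq5 was at 105 and 70.4 CPM at E11 and 158 and 149.6 at P7.

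The EAG, ERG and ELK pores are voltage-gated relatives that open slowly or recover fast from inactivation. Kcnh4, an ELK pore, was at 62.7 and 68.9 CPM at E11, 73.9 at E12, 67.6 and 38.5 at E13, 45.5 and 39.9 at E15, 3.68 and 13.8 at E18, then 9.99 and 9.65 at P4, 2.70 and 2.76 at P7, with 1.80 and 0.995 in adults. All plates up to E15 lay above all later plates of the series, and the E11 to P7 difference was -4.51 (SE 0.40, 22.8-fold lower). The C57BL/6 plates at E18 did not share that low level, with 24.9 to 41.0 CPM. Kcnh5, an EAG pore, went the other way, from 2.43 and 2.39 CPM to 48.5 and 44.7 (4.32), and Kcnh7 and Kcnh8, both high from E11 on at 227 to 272 and 84.7 to 96.2 CPM, did not pass.

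Small-conductance SK channels open with calcium alone and contribute to the afterhyperpolarization. Kcnn1 and Kcnn2 passed in opposite directions from E11 to P7: Kcnn1 was at 34.6 and 37.4 CPM and then 3.50 and 6.26 (-2.83), and Kcnn2 at 12.7 and 13.0 and then 87.9 and 93.3 (2.87). Kcnn3 did not pass, at 54.8 and 48.7 CPM and then 63.5 and 52.4. The sodium-activated pores missed the threshold, Kcnt1 with 1.92 (adjusted p 0.057) and Kcnt2 with -0.58 (adjusted p 0.25).

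Two-pore-domain channels carry background leak current. Kcnk1 was at 2.43 and 2.17 CPM at E11, 3.68 and 2.43 at E18, then 40.3 and 41.3 at P4, with 40.6 and 49.9 at P7. Kcnk3 and Kcnk9, the acid-sensitive TASK pair, were also low at E18 and higher at P4 in the series: Kcnk3 had 4.90 and 13.8 CPM at E18 and 58.2 and 71.9 at P4, and Kcnk9 had 3.67 and 11.3 and then 56.1 and 48.6. On the C57BL/6 plates at E18 the level was 9.35 to 18.3 CPM for Kcnk1, 22.6 to 39.9 for Kcnk3 and 10.05 to 30.03 for Kcnk9. These were below both P4 plates for each gene and above both E18 plates of the series, except that Kcnk9 on the plate of both sides was below E18 2. From E11 to P7 Kcnk1 differed by 4.33 (SE 0.30, adjusted p 2.3e-06, the smallest among members) and Kcnk3 by 3.67, and Kcnk9 went from 3 counts to 1131 (ratio 280, counting interval 95.6 to 1360). Kcnk2, the stretch- and heat-gated TREK1, had its highest level at E18, with 170 and 81.0 CPM there, 22.6 and 19.6 at E11 and 14.2 and 10.8 at P4. Its relative Kcnk10 (TREK2) was at 158 and 145 CPM at E11 and 55.5 and 65.7 at P7 (-1.26).

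Inward rectifiers pass current best near rest, and the Kir3 members are opened by G proteins downstream of inhibitory receptors. Of 11 members 7 were tested, and Kcnj9, Kcnj6 and Kcnj12 passed from E11 to P7. Kcnj9 (Kir3.3) was at 1.01 and 1.52 CPM at E11, 10.3 and 11.2 at P4, 14.6 and 25.03 at P7, with 48.6 and 67.9 in adults, with a difference of 3.99 (SE 0.52). Its partner Kcnj6 (Kir3.2) was at 9.5 and 4.34 CPM and then 41.6 and 46.2 (2.72), whereas Kcnj3 (Kir3.1) was at 40.8 and 26.7 and then 24.7 and 17.7, with an adjusted p of 0.43. Kcnj12, a strong rectifier, stayed below 6 CPM in the series up to P7 and reached 25.2 and 16.7 in adults.

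The KCNE subunit Kcne1l (the Kcne5 protein), a small partner of Kv7 and other pores, was at 3.84 and 6.30 CPM at E11 and 0.539 and 0.368 at P7 (-3.29). Kcnrg, which hinders assembly of Kv subunits, was at 2.63 and 4.56 CPM and then 1.89 and 4.23, with no call. Among the noncoding members Kcnq1ot1, the antisense RNA of the imprinted Kcnq1 locus, was abundant throughout the series, between 102.9 CPM on E18 2 and 258 on P7 1. The sources used here do not say whether reads were counted by strand, so Kcnq1ot1 and Kcnq1, Kcnd3os and Kcnd3, and Kcnmb4os2 and Kcnmb4 may share reads, and 40 of the 73 members overlap some other gene.

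From E11 to E18, 10 members were called higher and 4 lower, 23.0% of those tested, against 9.06% of all genes (5.15% higher, 3.91% lower). Those called higher were the silent subunits Kcng4 and Kcns2 (4.13), Kcnip1 (3.87), Kcnip3 (2.83), Kcnj12 (2.88), Kcnma1 (2.5, adjusted p 0.042), Kcnk2 (2.42), Kcnh5 (2.37), Kcnn2 (1.92) and Kcnk9, and those lower were Kcnh4 (-2.89), Kcnh2 (-1.88), Kcnab2 (-1.79) and Kcnk10 (-1.05). Kcng4 went from 2 counts to 203 (ratio 473, counting interval 129 to 3930) and Kcnk9 from 3 to 17 (26.4, interval 7.63 to 141). Kcnj12 had only 2 and 3 counts on the E11 plates and 4 and 5 on the E18 plates. Kcnd2, with 2.28, missed the threshold (adjusted p 0.054) but passed without plate E15 1 (2.27, adjusted p 0.027). The count fell to 7 without plate E11 1, to 6 without E11 2 and to 9 without E18 2, and Kcnma1 lost its call without each of these 3, with a difference of 0.86 without E18 2. Kcng4, Kcns2, Kcnip3, Kcnk2 and Kcnh4 passed in all 16 alternatives run.

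From E18 to P4, 14 members were called higher and 4 lower, 29.5% of those tested, against 20.4% of all genes (9.97% higher, 10.4% lower). The members' median difference was 0.64 and that of all genes 0.01. Those called higher included the leak pores Kcnk1 (3.94), Kcnk3 (2.85) and Kcnk9 (2.84), with Kcnc4 (2.80), Kcnj9 (2.63) and Kcnma1 (2.25, adjusted p 0.036), and Kcnip3, Kcna2, Kcnh5, Kcnab2, Kcnh2 and Kcnq1ot1 rose by 0.94 to 1.57. Kcne1l (-4.21), Kcnk2 (-3.13), Kcnn1 (-2.80) and Kcnab1 (-2.55) were lower. By spliced counts alone the Kcnab1 difference had the other sign (0.091, adjusted p 0.98). Kcnab1 on E18 2 was at 7.29 CPM in 94 wells and at 0.816 in the 93 with at least 5 neuron markers. Under that limit E18 1 was at 8.21 CPM and the P4 plates were at 1.06 and 1.11. Kcnd2 (1.82, adjusted p 0.069) and Kcnip1 (1.91, adjusted p 0.070) missed the threshold, and both passed without E15 1 (1.87, adjusted p 0.034, and 1.96, adjusted p 0.030), a plate of neither stage, whose removal also let 68 members through the low-count filter.

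The calls of this step moved when single plates of either stage were left out. The shares of all genes called in those fits are not given here. Kcne1l was at 66.2 CPM on plate E18 1 and 2.43 on E18 2, and Kcne1l was 1 of the genes highest in astrocyte-like and progenitor-like wells. The count fell to 8 without E18 1, to 8 without P4 1 and to 7 without P4 2, and the calls of Kcnma1, Kcnj9 and Kcne1l were lost without E18 1. Kcnk1, Kcnk2, Kcnk3, Kcnk9 and Kcnn1 passed in all 16 alternatives, none of which used the C57BL/6 plates at E18. On those plates Kcnn1 was at 4.74 to 6.74 CPM, against 18.4 and 13.8 at E18 in the series and 1.75 and 2.21 at P4. Kcnk2 was at 54.3 to 89.9 CPM on them. The comparisons E11 to E18 and E18 to P4 share the E18 plates, and E11 to E18 shares the E11 plates with E11 to P7.

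Between P4 and P7 edgeR called no member, with 1 of all 16353 genes called (0.00612%). At an unadjusted p under 0.05 there were 8 of the 61 members and 551 of all 16353 genes, the members including Kcnh4 (-1.83, SE 0.41, adjusted p 0.41), Kcnip4 (1.17) and Kcng4 (1.66), and DESeq2 called 1, Kcnh4. With only the 4 plates of P4 and P7 in the fit edgeR called 10 members, 9 higher and 1 lower, and without the low-count filter 3. The shares of all genes called in these other fits are not given here, so their counts are not read as a result about the members. From P7 to adult 1 member was called, 1.64% of those tested, against 3.68% of all genes (1.35% higher, 2.34% lower): the sodium-activated pore Kcnt2, at 41.2 and 23.2 CPM at P7 and 16.2 and 4.0 in adults (-2.43, SE 0.52, adjusted p 0.025). Kcnc4 (1.84, adjusted p 0.059) and Kcnj9 (1.49, adjusted p 0.060) came closest among those not called. The count was 0 without P7 1 and without P7 2, 2 without adult 1 and 8 without adult 2, and 2 without E15 1; leaving out adult 2 leaves the 21 wells of adult 1 alone. The Kcnt2 call was lost without P7 1, P7 2 or adult 2. The dissociation response list summed to 1832 and 2111 CPM in adults, above both P7 plates, and its part in the adult levels was not tested.

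Left and right habenula at E18 were compared in the C57BL/6 plates. Of 57 members tested edgeR called none, and of all 14614 genes none either (0.0%), DESeq2 called no member, and 1 member and 155 genes had an unadjusted p under 0.05. That member was Kcnh5, at 37.8 and 51.2 CPM on the left and 25.7 and 20.7 on the right (-0.94, 95% interval -1.54 to -0.33, adjusted p 1.00). The intervals for the abundant members were narrow: right against left was -0.06 (-0.49 to 0.37) for Kcnma1, 0.18 (-0.19 to 0.56) for Kcnd2 and 0.01 (-0.39 to 0.41) for Kcnip1. For Kcng4, at 66.0 and 166 CPM on the left and 95.1 and 134 on the right, the interval was wider (-0.91 to 0.86). Without plate left 1, Kcnb2 was called lower on the right (-0.90, adjusted p 0.028), which leaves the 40 wells of left 2 against both right plates. The erythroid list was at 2327 and 19803 CPM on the left plates and 3902 and 278 on the right ones, and its part was not tested.

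The deposited tables also give spliced and unspliced counts, and for long genes most counts were unspliced. The median unspliced share was 82.9% for the 22 members over 100 kb with at least 100 counts and 9.25% for the 38 shorter ones, and Spearman's rho between span and share was 0.74 across these 60 members, which share their libraries. By gene the share was 76.7% for Kcnma1, 87.8% for Kcnd2, 95.8% for Kcnip4 and 95.3% for Kcnq5, but 4.55% for Kcng4, which spans 11.8 kb. The order of levels changed with it: by spliced counts alone Kcnma1 stayed first and Kcnip1, Kcnd2 and Kcna2 ranked 3, 4 and 6, while Kcnip4 went from rank 7 to 35, Kcnq5 from 13 to 46 and Kcnh7 from 5 to 24. The rise was also there in spliced counts, with Kcnma1 at 74.1 and 77.9 CPM at E11 and 2048 and 2143 at P7, Kcnd2 at 11.5 and 12.6 and then 567 and 519.7, and Kcnip1 at 6.78 and 5.48 and then 471 and 439.

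**Figure D4:**
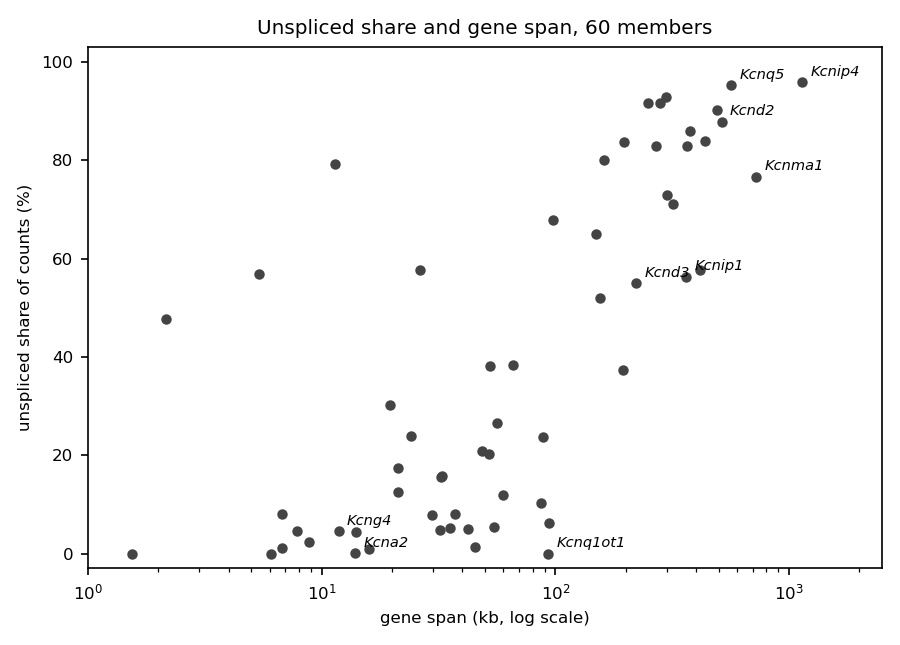
Share of unspliced counts in Pou4f1-positive wells (percent) against the genomic span of the gene (kb, log axis) for the 60 potassium channel genes with at least 100 counts, 1 point per gene. Genes over 100 kb lie mostly high, with a median of 82.9%, and shorter ones mostly low, with a median of 9.25%.

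The share of Pou4f1-positive wells with a count of a gene, after each well was thinned to 5000 counts, was 63.3% and 62.5% for Kcnma1 at E11 and 100% on both P7 plates (77.5% and 77.0% at E11 before thinning). For Kcnd2 it was 39.3% and 38.6% and then 99.3% and 100%, and for Kcnip1 7.41% and 6.14% and then 95.5% and 91.3%. Thinning left out 15 and 27 shallower wells at E11 and 6 and 28 at P7. A count of Kcnma1 was also found in 65.7% of 35 erythroid-like wells of the second set, a cell type that should lack it, at a median of 3878 counts and a level of 330.0 CPM against 3299 in neuron-like wells. Of these wells 32 came from plate left 1 at E18. The E11 shares of Kcnma1 after thinning were no higher than this, and the shares alone do not show expression. Plate left 1 had Kcnma1 at 3051 CPM, so its erythroid-like wells do not measure the background on the E11 plates. The erythroid-like level is also above the 293 CPM at E11, and no background was subtracted from any level or fold. On the E11 plates themselves Kcnma1 was at 18.6 and 21.9 CPM in wells of cluster 13, from 5 and 3 counts, and at 324 and 319.6 in neuron-like wells.

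Kept wells were clustered from 2000 variable genes with all Kcn genes left out, and the clusters are described with no test. Other genes that overlap members were not left out, such as 2900064K03Rik and C030015E24Rik within Kcnip4. The level of Kcnip4 by cluster may therefore not be independent of the clustering. At P4 and P7 these were clusters 0, 4, 6 and 11, named medial habenula-like, and cluster 12, which was left without a name. Cluster 4 got its name from 3 medial habenula markers, the fewest allowed. Its top 10 genes included Gpr151, which is on the lateral habenula list, so that name is uncertain. Kcng4 was highest in cluster 11, led by Gad1, Pde11a and Cck, at 435 and 243 CPM on the P4 plates and 375 and 372 on the P7 plates, and the highest plate of any other cluster was at 128. In cluster 6, led by Pth2, Chrnb3 and Chrna6, Kcng4 was at 3.88 to 10.9 CPM, with 243 CPM as the lowest plate of cluster 11. Cluster 11 was also highest for Kcnc2, a Kv3 pore, with a mean of 72.4 CPM against 1.89 in cluster 6, for Kcnip4 (512), Kcnk9 (171), Kcnb2 (338) and Kcnk2 (37.0), with no plate of another cluster reaching its lowest plate. It held 17, 6, 59 and 63 wells on the 4 plates.

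Kcnmb4, the neuronal BK beta subunit, was highest in cluster 4, led by Rxfp2, Htr5b and Oprm1, at 169 and 186 CPM at P4 and 204 and 238 at P7, while its level in cluster 0, led by Neurod6, was 18.0 to 33.5. The BK pore itself was not highest there: Kcnma1 was at 5254 to 6709 CPM in cluster 4, at 8633 to 9956 in cluster 6 and at 3577 to 4714 in cluster 11, its lowest. Kcnt1, a sodium-activated pore, was highest in cluster 12, led by L3mbtl4 and Fgf10, with a mean of 39.4 CPM.

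**Figure D5:**
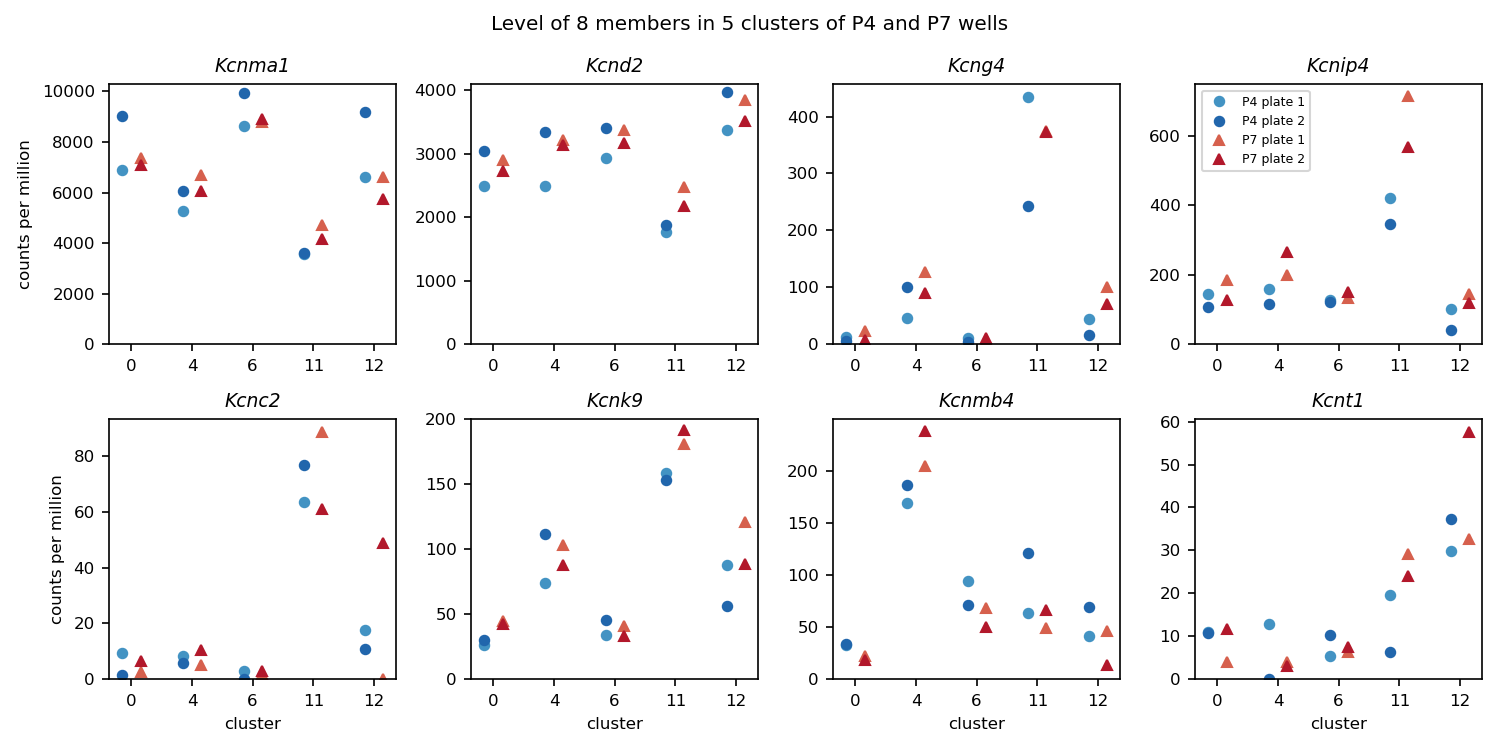
Level of 8 potassium channel genes in CPM (linear axes from 0) in clusters 0, 4, 6, 11 and 12 at P4 and P7, with 1 point per plate. Kcng4, Kcnc2, Kcnip4 and Kcnk9 are highest in cluster 11, Kcnmb4 in cluster 4 and Kcnt1 in cluster 12, whereas Kcnma1 and Kcnd2 are high in all 5.

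At E11 the members also differed between clusters on the same plates. Kcnma1 was at 407 and 406 CPM in cluster 3, led by Onecut3 and Vwc2l, at 233 and 219 in cluster 5, led by Tfap2b, and at 87.7 and 51.9 in cluster 10, which had intermediate progenitor markers such as Neurod4. Kcnq5 (165 and 110.5 CPM), Kcnip4 (94.3 and 90.2) and Kcnj3 (54.1 and 40.8) were highest in cluster 3 too. Kcnab1 was highest in cluster 5, at 40.3 and 26.7 CPM.

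Some members were found mostly outside neurons. Kcnj10 (Kir4.1), the glial channel that takes up extracellular potassium, was at 285 CPM in 94 astrocyte-like wells and 294 in 101 oligodendrocyte lineage-like wells of the series, against 1.03 in 2059 neuron-like wells, and at 345 in 54 astrocyte-like wells of the second set. Its level differed between plates, with 194 CPM in astrocyte-like wells of E18 1, 92.8 on P4 2 and 725 on adult 2. Kcnj16, a partner of Kir4.1, was at 29.6 CPM in astrocyte-like wells, and Kcna1 at 99.9 in oligodendrocyte lineage-like wells.

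Kcnj8 (Kir6.1), the pore of the vascular ATP-sensitive channel, was at 614 CPM in 48 pericyte and smooth muscle-like wells and had 4 counts in all neuron-like wells (0.10 CPM). That level rests on plate E13 2, where 22 such wells had 699 CPM (232 of the 313 counts), while 12 such wells of adult 2 had no count, which allows up to 37.9 CPM at a limit of 3 counts. Endothelial-like wells had Kcnj2 at 127 CPM and Kcnj8 at 98.6, but only 15.5% and 10.3% of these 58 wells had a count of them. Microglia-like wells had Kcnk13 at 132 CPM from 33 counts, and fibroblast-like wells had Kcnk2 at 370.1 and Kcne4 at 78.4. Ependymal and choroid plexus-like wells had Kcna5 at 60.1, and Kcne2 (38.8) and Kcnj13 (27.2), both known from choroid plexus epithelium, stood out in cluster 13. That cluster was left without a name: Ttr led it, but cell cycle genes such as Top2a and Mki67 were among its top 10, and only 5.71% and 9.52% of its 105 wells had a count of Kcne2 and Kcnj13.

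Kcnd2 was also found outside neuron-like wells. It was at 1976 CPM in neuron-like wells of the series, 1996 in oligodendrocyte lineage-like and 868 in astrocyte-like wells, and in the second set it was at 4843 in 27 oligodendrocyte lineage-like wells against 1522 in neuron-like and 163 in erythroid-like wells. Kcnma1 was at 4895 CPM in neuron-like wells, 860 in oligodendrocyte lineage-like, 316 in astrocyte-like and 149 in pericyte and smooth muscle-like wells. The last 2 levels are not above the 330.0 CPM of the erythroid-like wells. Those wells lie on plates of the second set and do not measure the background of the series, so whether these 2 levels are expression was not tested. These classes pool stages, and no test was made between them.

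Lists of genes that work with the members gave the following counts. Of 31 tested partners of potassium channels (auxiliary, anchoring and scaffold proteins) 16 were called higher and 2 lower from E11 to P7, where 18.8% of all genes were called higher and 16.2% lower. Lgi1, a secreted partner of Kv1 complexes, was at 1.41 and 2.82 CPM and then 59.96 and 67.0 (4.95), Dpp10, which binds Kv4 pores, at 14.3 and 20.0 and then 459 and 395 (4.70), and Lrrc55, a BK gamma subunit, at 10.9 and 12.2 and then 285 and 279 (4.67). Of 16 genes of the sodium-potassium pump and chloride cotransport 9 were called higher and 2 lower in the same comparison. Among them Slc12a5, the neuronal chloride exporter KCC2, differed by 4.01, the pump subunit Atp1b2 by 4.10 and its regulator Fxyd7 by 6.39, and Slc12a7 was lower, at -3.04. From E11 to E18 0 of the 31 partners were called higher and 2 lower, against 5.15% and 3.91% of all genes. From E18 to P4 9 of the 31 partners were called higher and 2 lower, against 9.97% and 10.4% of all genes.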

How the data were processed

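The authors deposited collision-corrected transcript counts per gene and well, an estimated count from unique molecular identifiers, as total, spliced and unspliced tables. All values returned to whole identifiers within 1e-06. Reads were aligned to mm10 with STAR 2.5.3a after Trim Galore, per the submitters' processing notes, and the sources used here name no counting program or annotation.

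Counts of Pou4f1-positive kept wells were summed per plate, rounded and tested with edgeR 4.0.16 in R 4.3.3 (filterByExpr, TMM, quasi-likelihood test, Benjamini-Hochberg threshold 0.05). The 14 series plates of stages with 2 plates shared 1 spread, and the E12 plate is given as a value. The script was tested on simulated counts. The sides were fitted apart. CPM are per 1e6 counts. Plates were not paired by their numbers: deviations correlated between -0.229 and 0.310 over 21 pairs of stages of the series, above 0.1 in 2. The left and right plates correlated at 0.196, a single pair of groups, and were not paired.

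Wells were clustered with scanpy 1.11.5 (2000 variable genes without Kcn genes, 30 components, resolution 1) and named from at least 3 markers. No doublet caller was run, so doublets may remain.

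Members and lists were chosen with earlier results of these data known. Genes named are the 20 members of highest mean, up to 12 called members per comparison by size of difference, 3 per cell class, and up to 4 called genes per other list; members named beyond these were chosen after their values were seen. Alternatives changed the wells, table, filter, tool (DESeq2 1.42.0) and plates. Counting intervals are exact, at 95%, and cover counting error only. Some members are not reported here by name.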

Additional observations from a re-analysis of the deposited data

Results flagged for a closer look

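The single E12 plate has no replicate and entered no test, and 5 potassium channel genes there were at least 2 times the highest E11 or E13 plate with at least 50 counts. Kcnip4 was at 399 CPM against 71.1 (1822 counts), Kcnmb2 at 83.6 against 23.2 (381 counts), Kcnj3 at 82.1 against 40.8 (374 counts), Kcnc4 at 14.48 against 3.91 (66 counts) and Kcnj2 at 14.1 against 2.73 (64 counts). In spliced counts Kcnip4 was at 12.6 CPM on the E12 plate and at 1.57 and 1.92 at E11. Kcnj2 was among the genes highest in endothelial-like wells, and the endothelial marker list was at 200 CPM on the E12 plate and at 9.5 and 14.8 at E11. The part of endothelial cells in these values was not tested.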

How the results depend on the processing

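The number of called members was within 1.5 times its value in the report except as follows, in the order E11 to E18, E18 to P4, P4 to P7 and P7 to adult. Without the low-count filter it was 22, 29, 3 and 14. With only the 4 plates of the 2 stages it was 7, 10, 10 and 0, and 50 for E11 to P7. The shares of all genes called under the alternatives are not given here. The counts therefore show only how far the calls moved with the processing. DESeq2 gave 1 for P4 to P7 and 4 for P7 to adult. For P7 to adult, wells with at least 2 Pou4f1 counts gave 4, the spliced counts alone 3, and wells with at least 5 neuron markers 3. Without the plates E13 2, E18 1 and adult 1, P4 to P7 gave 1 and P7 to adult 9, and without E15 1 P7 to adult gave 2. The last 3 alternatives were added after the data had been seen. Leaving out 1 plate in turn gave 6 to 14, 7 to 20, 0 and 0 to 8, then 24 to 26 for E11 to P7 and 0 to 1 for the sides. Of 47 named calls 27 passed every alternative. The reversed results were Kcnab1 from E18 to P4 in the spliced table (0.091, adjusted p 0.98) and Kcnmb4 from P7 to adult without adult 2 (-1.55, adjusted p 0.043, against 0.80 without adult 1). The causes were not tested. A replicate block gave 14, 20, 0, 1 and 29 calls, and 0 for the sides. At clustering resolution 0.5, 9 of the levels by cell class moved and 21 did not. Depth was lowest on adult 1, with 556190 counts.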
